A study of Mus musculus with 32 samples.

Results

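The genes described here are 44 genes of DNA replication, DNA repair and mitosis, followed across the striatum of wild-type and R6/2 mice given vehicle or HSP990. Of these, 43 could be measured among the 18193 genes of the arrays; Ccnb1 had no probe set that was paired with it alone. R6/2 mice carry a transgene with the first exon of the human huntingtin gene and an expanded CAG repeat, and are a model of Huntington's disease. HSP990 is an inhibitor of the chaperone HSP90. All mice were male, 12 weeks old, on a CBA X C57Bl/6 background, and the drug groups received 12 mg/kg by mouth 4 h before the tissue was taken, per the labels and the series' description. There were 7 arrays of wild-type mice on vehicle, 10 of wild-type mice on HSP990, 7 of R6/2 mice on vehicle and 8 of R6/2 mice on HSP990. The arrays are numbered within groups but no animal is identified, so a p-value reflects only how far these samples spread, which may be technical.

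Cenpe, Rad51ap1, Chek1 and Tcf19 were selected on measured values: they entered the list because their responses to HSP990 differed between the genotypes in an earlier examination of the same arrays. Their responses, the difference between those responses, and their genotype difference on HSP990, which uses some of the same arrays, are therefore given as descriptions without a test. The other 40 genes were added for their function. For Cenpe, Rad51ap1, Chek1 and Tcf19 the tests rest on contrasts averaged over genotype or over treatment, whose correlations with the selecting contrast were 0.05 for the drug effect and -0.12 for the genotype effect by design.

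A cell that is about to divide first loads the MCM helicase onto its replication origins, then copies its DNA with the sliding clamp PCNA at the fork, and then condenses and separates the chromosomes under the control of cyclin-dependent, Aurora and Polo-like kinases. Many of these genes are transcribed in waves under E2F factors at the start of DNA synthesis and under factors that bind CHR and CCAAT elements before mitosis. The adult striatum consists mainly of neurons that no longer divide, with dividing progenitors in the neighbouring subventricular zone and among oligodendrocyte precursors, while replication and repair proteins such as PCNA, FEN1 and BRCA1 also work in cells that do not divide.

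Values are deposited log2 expression values, so a difference of 1 is a doubling of the hybridisation signal. Each gene is represented by its brightest probe set. A gene is called dim here if the mean of that probe set over all arrays was no higher than 5.77, the middle value of the probe set means; 22 of the 43 genes were dim, and low signals compress differences. Since whole tissue was used, fewer expressing cells and less RNA per cell cannot be told apart. Hspa1b, a stress-inducible chaperone gene and a check on drug action, rose by 5.46 ± 0.29 in wild type and by 4.73 ± 0.30 in R6/2 on the log2 scale (SE of the fit; limma adjusted p = 3.16e-15 and 8.39e-13).

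Some arrays stood apart. The mean 3' minus 5' difference of the Gapdh and Actb control probe sets, a measure of RNA degradation, ran from 0.64 to 2.45 on all arrays but 1, R6/2 HSP990 replicate 5, which reached 4.56. Its group median was 1.43 on vehicle and 1.04 on HSP990 in wild type, and 1.07 and 1.46 in R6/2. The measure was thus lower on HSP990 in wild type and higher in R6/2, the same directions as the list's median responses below. The part of RNA quality in those responses was not tested beyond fits with this measure as a covariate. R6/2 HSP990 replicate 5 held the highest value of its group for 11 of the 43 genes, including all 4 of Cenpe, Rad51ap1, Chek1 and Tcf19. By that count other arrays stood out more: R6/2 HSP990 replicate 1 was highest for 14, R6/2 vehicle replicate 5 for 15 and WT HSP990 replicate 2 for 17. WT vehicle replicate 7 held the lowest value of its group for 24 of the 43 genes, R6/2 HSP990 replicate 6 for 16 and R6/2 vehicle replicate 7 for 15. Counts that move by more than 1.5 times without an array are given beside the result.

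The promoters of the genes that entered through their difference in response are shown because all 4 had their highest mean in R6/2 mice on HSP990. RefSeq lists them on build GRCm38.p6 (mouse), and 280 bases are printed on the gene's own strand, from 250 before the transcription start to 30 after it. Capitals mark an E2F core (the form TTCCCGC, the form TTCGCGC, the form TTGCCGC or the form TTGGCGC) or a CCAAT box, read on either strand. The Cenpe stretch is chr3:135212313-135212592 on the plus strand, the Rad51ap1 stretch chr6:126939558-126939837 on the minus strand, the Chek1 stretch chr9:36726629-36726908 on the minus strand and the Tcf19 stretch chr17:35516795-35517074 on the minus strand.
Cenpe: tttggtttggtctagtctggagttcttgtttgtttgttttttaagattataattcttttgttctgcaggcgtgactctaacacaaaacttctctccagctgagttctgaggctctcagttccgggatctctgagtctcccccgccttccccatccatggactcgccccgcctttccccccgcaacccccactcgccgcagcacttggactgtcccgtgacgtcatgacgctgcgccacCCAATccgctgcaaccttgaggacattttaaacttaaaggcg
Rad51ap1: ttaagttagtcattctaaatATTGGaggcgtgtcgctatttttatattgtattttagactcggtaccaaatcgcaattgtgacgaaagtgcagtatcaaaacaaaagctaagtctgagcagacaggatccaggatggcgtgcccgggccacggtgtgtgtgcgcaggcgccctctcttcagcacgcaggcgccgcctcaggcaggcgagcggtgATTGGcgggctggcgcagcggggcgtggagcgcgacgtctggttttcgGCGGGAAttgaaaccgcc
Chek1: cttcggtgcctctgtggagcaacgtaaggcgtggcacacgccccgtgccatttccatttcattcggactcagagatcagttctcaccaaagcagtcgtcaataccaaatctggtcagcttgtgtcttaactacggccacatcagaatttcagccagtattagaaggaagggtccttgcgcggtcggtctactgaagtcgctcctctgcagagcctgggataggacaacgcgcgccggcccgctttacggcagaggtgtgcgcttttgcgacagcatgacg
Tcf19: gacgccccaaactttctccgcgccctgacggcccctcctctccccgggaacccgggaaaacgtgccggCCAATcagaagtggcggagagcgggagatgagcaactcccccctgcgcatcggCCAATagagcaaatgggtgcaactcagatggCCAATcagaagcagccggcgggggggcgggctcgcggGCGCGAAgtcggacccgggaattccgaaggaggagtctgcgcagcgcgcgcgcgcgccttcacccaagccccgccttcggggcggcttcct

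Rad51ap1 held an E2F core at positions 13 to 19 after the start and a CCAAT box in the opposite orientation at -36 to -32 and at -230 to -226. Tcf19 held an E2F core at -61 to -55 and 3 CCAAT boxes, from -182, -129 and -98. Cenpe held a CCAAT box at -12 to -8 and no E2F core of these letters. Chek1 held an E2F core at 44 to 50, beyond the printed stretch. Over windows of 300 bases, an E2F core stood in 19 of the 41 promoters listed for 39 of the 44 genes (46.3%), against 9.57% of the 32851 mouse promoters in the table. A CHR element (TTTGAA, either strand) stood in 14 of the 41 (34.1%, against 17.9% of all) and a CCAAT box in 28 (68.3%, against 37.4%). The E2F form TTGGCGC and a CCAAT box read on the other strand can share letters. These are matches of letters in a window and no measure of binding.

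Cenpe, Rad51ap1, Chek1 and Tcf19 stood highest in R6/2 mice on HSP990, and for 3 of them every array of that group lay above every R6/2 vehicle array, where 0.671% of all genes had groups without overlap. Cenpe encodes the kinetochore motor CENP-E, which carries chromosomes to the spindle equator. Its values lay between 4.84 and 5.23 (median 4.92) in wild type on vehicle, between 4.46 and 5.07 (median 4.59) in wild type on HSP990, between 5.06 and 5.34 (median 5.16) in R6/2 on vehicle and between 5.51 and 5.92 (median 5.78) in R6/2 on HSP990. The 2 R6/2 groups did not overlap, and 9 of the 10 wild-type HSP990 arrays lay below the lowest wild-type vehicle array. The response was -0.34 ± 0.08 in wild type and 0.54 ± 0.09 in R6/2.

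Rad51ap1 encodes a DNA-binding protein that acts in homologous recombination. It lay between 4.32 and 5.18 (median 5.00) in wild type on vehicle and between 4.66 and 5.03 (median 4.87) on HSP990, ranges that overlapped throughout. In R6/2 it lay between 4.73 and 5.44 (median 5.34) on vehicle and between 5.73 and 6.53 (median 6.06) on HSP990, with no overlap. The response was -0.07 ± 0.11 in wild type and 0.86 ± 0.12 in R6/2, a 1.82-fold rise.

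Chek1 encodes the checkpoint kinase that halts the cycle when replication forks stall. It lay between 4.70 and 5.26 (median 5.05) in wild type on vehicle, between 4.58 and 5.19 (median 4.78) in wild type on HSP990, between 4.78 and 5.00 (median 4.87) in R6/2 on vehicle and between 5.17 and 5.61 (median 5.34) in R6/2 on HSP990. The first 3 of these groups overlapped one another, and the last was separate from R6/2 on vehicle. The response was -0.16 ± 0.09 in wild type and 0.50 ± 0.09 in R6/2. 

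Tcf19 encodes a nuclear protein first found as a gene switched on at the onset of DNA synthesis, and was the only 1 of the 4 that was not dim. It lay between 6.40 and 6.98 (median 6.93) in wild type on vehicle, between 6.18 and 6.71 (median 6.32) in wild type on HSP990, between 5.98 and 6.96 (median 6.63) in R6/2 on vehicle and between 6.91 and 7.72 (median 7.16) in R6/2 on HSP990. Each drug range overlapped the vehicle range of its genotype. The response was -0.41 ± 0.12 in wild type and 0.64 ± 0.13 in R6/2.

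**Figure D1:**
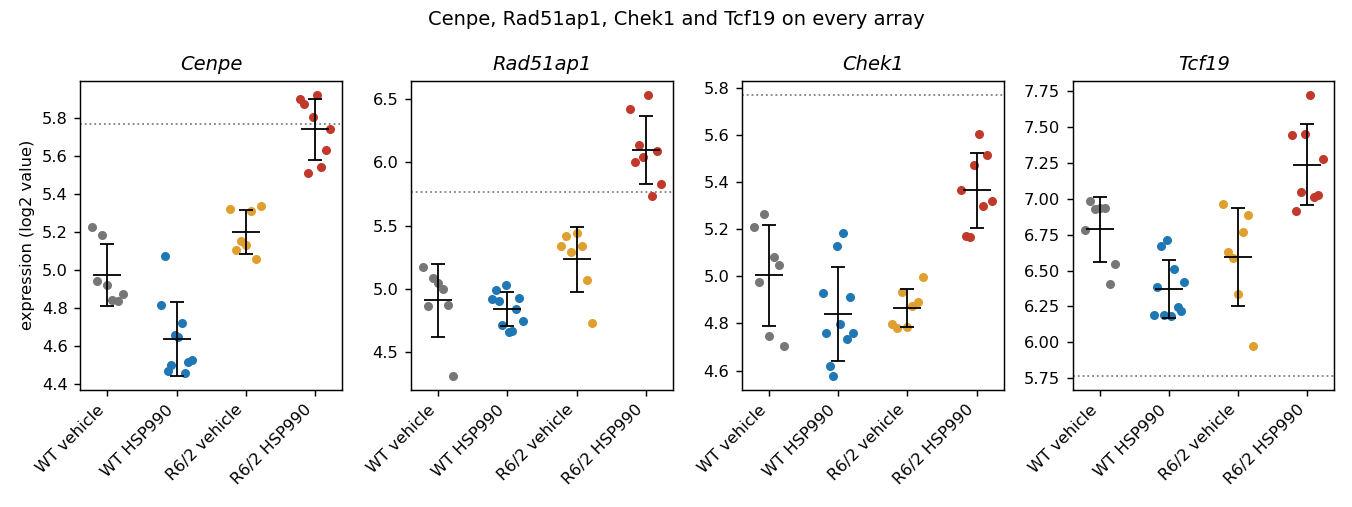
Log2 expression of Cenpe, Rad51ap1, Chek1 and Tcf19 on each array (vertical axes, each with its own range) in the 4 groups; points are arrays, bars the mean and 1 SD, and the dotted line is the level of 5.77 at or below which a gene's overall mean is called dim. The R6/2 HSP990 arrays are the highest group in all 4 panels, with Cenpe between 5.51 and 5.92 there and between 4.46 and 5.07 in wild type on HSP990.

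The excess of the change in R6/2 over that in wild type was 0.88 for Cenpe, 0.93 for Rad51ap1, 0.66 for Chek1 and 1.06 for Tcf19. Without R6/2 HSP990 replicate 5 these differences were 0.85, 0.87, 0.63 and 0.99, and after adjustment for each array's 3' minus 5' difference they were 0.77, 0.77, 0.55 and 0.82. With the mean of all probe sets of a gene they fell to 0.47 for Cenpe, 0.56 for Rad51ap1, 0.21 for Chek1 and 0.59 for Tcf19, and no other probe set of these genes was called for the difference. Just inside the threshold that had selected these genes was Chek1 (0.66 ± 0.12), and just outside it was Cdt1 (0.72 ± 0.17).

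Averaged over the treatments, which includes the R6/2 HSP990 arrays, all 4 were higher in R6/2. The R6/2 difference was 0.66 ± 0.06 for Cenpe (limma, Benjamini-Hochberg adjusted p = 9.99e-11) and 0.79 ± 0.08 for Rad51ap1 (adjusted p = 2.12e-09). It was 0.33 ± 0.09 for Tcf19 (adjusted p = 0.00336) and 0.19 ± 0.06 for Chek1 (adjusted p = 0.0125); Chek1 passed no longer with the mean of its probe sets (adjusted p = 0.0556). On vehicle alone the R6/2 differences were 0.23 ± 0.09 for Cenpe, 0.32 ± 0.12 for Rad51ap1, -0.14 ± 0.09 for Chek1 and -0.20 ± 0.14 for Tcf19. The positive averages of Chek1 and Tcf19 thus came from the HSP990 arrays, which took part in their selection. Their p-values are no evidence of a genotype difference without the drug. Averaged over the genotypes, HSP990 raised Rad51ap1 by 0.40 ± 0.08 (adjusted p = 0.00142), an average of 0.86 in R6/2 and -0.07 in wild type. The drug effects were 0.10 ± 0.06 for Cenpe, 0.17 ± 0.06 for Chek1 and 0.12 ± 0.09 for Tcf19, none of which passed. Deviations of the 4 genes from their group means correlated weakly over the 32 arrays, with r from 0.19 for Cenpe and Tcf19 to 0.54 for Rad51ap1 and Tcf19, which share the arrays' RNA quality.

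The genotypes were then compared within each treatment across all 43 genes. On vehicle, 8 genes were higher and 3 lower in R6/2, against 21.5% of all genes called (11.9% higher and 9.6% lower), and the list's median difference was 0.03 (all genes -0.01). On HSP990, 30 of the 43 genes were higher and 3 lower, where 33.6% of all genes were called (22.6% higher and 11% lower). Without Cenpe, Rad51ap1, Chek1 and Tcf19, 26 of 39 were higher on HSP990. The median difference on HSP990 was 0.34 for the 43 genes, 0.31 for those 39 and 0.04 for all genes. Of the 30 higher genes, 11 were dim. The same 8 genes that were higher on vehicle were also higher on HSP990, the same 3 were lower on both, 22 were called higher on HSP990 without a call on vehicle, and 10 were called on neither. The 2 comparisons share no arrays, but a call in 1 and not in the other is no test of a difference.

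**Figure D2:**
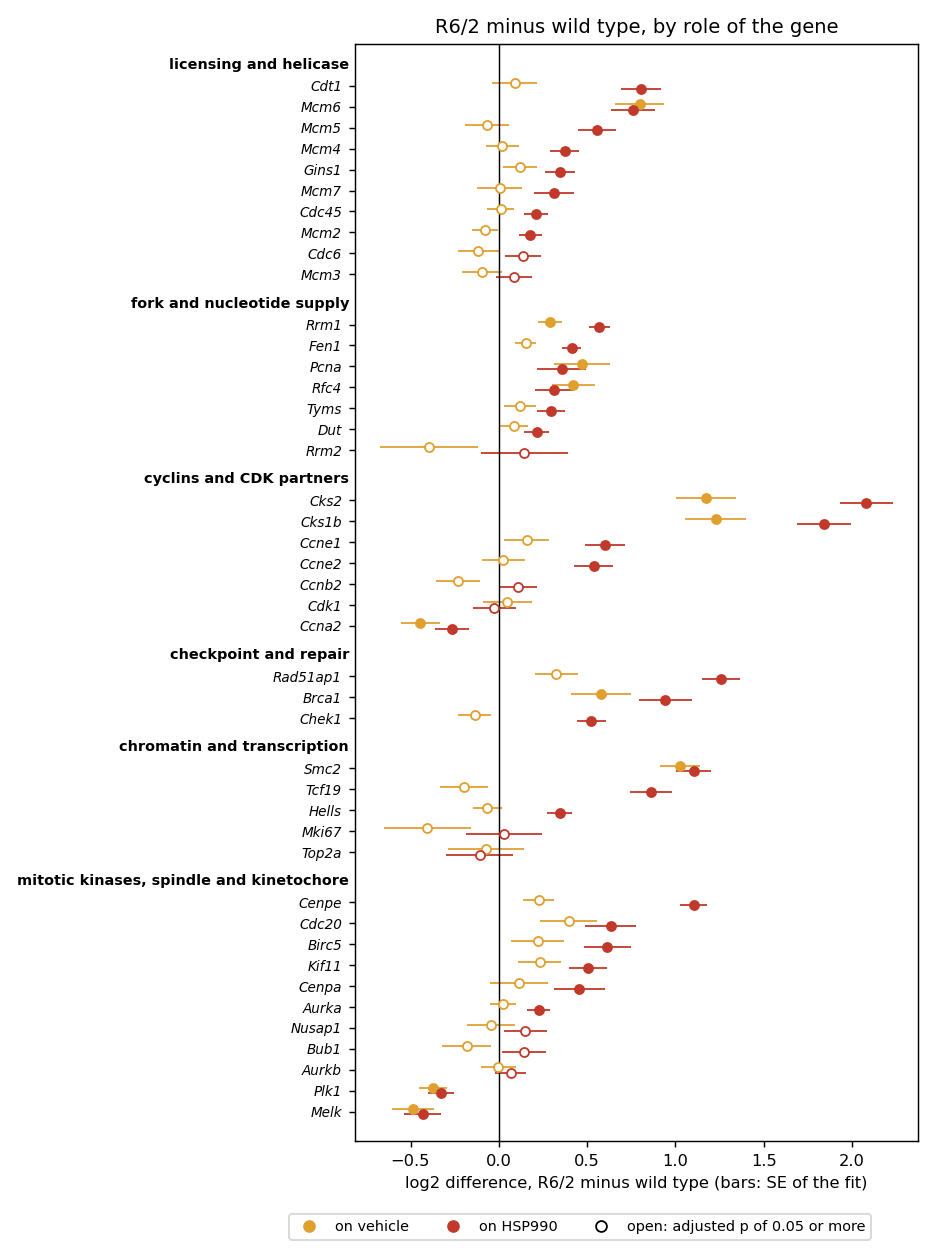
R6/2 minus wild type (horizontal axis, log2) for the 43 measured genes in order of role, on vehicle (yellow) and on HSP990 (red); bars are the SE of the fit and open points have an adjusted p of 0.05 or more. Cks2, Cks1b, Rad51ap1, Cenpe and Smc2 lie farthest to the right on HSP990, Ccna2, Plk1 and Melk are the filled points to the left of 0, and most licensing genes are open and near 0 on vehicle. The fill of Cenpe, Rad51ap1, Chek1 and Tcf19 is not a test.

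Among the 10 licensing and helicase genes, 8 were higher in R6/2 on HSP990 and 1, Mcm6, was higher on vehicle. Mcm6, a helicase subunit, lay between 5.71 and 6.47 (median 6.25) in wild type and between 6.76 and 7.82 (median 6.90) in R6/2 on vehicle. It lay between 5.93 and 6.56 (median 6.12) in wild type and between 6.71 and 7.30 (median 6.92) in R6/2 on HSP990. The genotypes did not overlap on either treatment, and the differences were 0.80 ± 0.14 (adjusted p = 8.06e-05) and 0.76 ± 0.12 (adjusted p = 1.15e-05). Groups without overlap made up 3.9% of all genes on vehicle and 9.4% on HSP990.

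Cdt1, which recruits the MCM ring to origins, differed by 0.09 ± 0.13 on vehicle (adjusted p = 0.679), where wild type lay between 4.72 and 5.62 (median 5.47) and R6/2 between 4.87 and 5.80 (median 5.49). On HSP990 wild type lay between 4.77 and 5.37 (median 5.03) and R6/2 between 5.71 and 6.02 (median 5.81), without overlap, a difference of 0.81 ± 0.11 (adjusted p = 9.05e-07). The helicase subunit gene Mcm5 lay between 6.35 and 6.95 (median 6.74) in wild type and between 7.02 and 7.59 (median 7.29) in R6/2 on HSP990, also without overlap (0.56 ± 0.11, adjusted p = 0.000134). On vehicle Mcm5 overlapped widely, from 6.33 to 7.17 in wild type and from 6.37 to 7.02 in R6/2.

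The other helicase genes differed less on HSP990. Mcm4 lay between 7.08 and 7.45 (median 7.25) in wild type and between 7.41 and 7.84 (median 7.59) in R6/2 on HSP990, and between 7.34 and 7.61 (median 7.45) in wild type and between 7.13 and 7.86 (median 7.59) in R6/2 on vehicle. Gins1 lay between 4.54 and 4.98 (median 4.83) in wild type and between 4.95 and 5.28 (median 5.13) in R6/2 on HSP990, and between 4.43 and 5.14 (median 4.86) in wild type and between 4.63 and 5.26 (median 4.84) in R6/2 on vehicle. Both overlapped slightly on HSP990 and widely on vehicle. Mcm4 was higher by 0.37 ± 0.08 (adjusted p = 0.000565), and Gins1 and Cdc45, whose proteins join the MCM ring in the active helicase, were higher by 0.34 ± 0.08 (adjusted p = 0.00168) and 0.21 ± 0.07 (adjusted p = 0.0145). Mcm7 (0.31 ± 0.11, adjusted p = 0.0292) and Mcm2 (0.18 ± 0.06, adjusted p = 0.0296) passed narrowly. Mcm7 lay between 8.71 and 9.31 (median 8.95) in wild type and between 8.88 and 9.50 (median 9.35) in R6/2 on HSP990, and between 8.23 and 9.15 (median 9.01) in wild type and between 8.43 and 9.28 (median 8.92) in R6/2 on vehicle. Mcm2 lay between 6.74 and 7.16 (median 6.88) in wild type and between 6.87 and 7.30 (median 7.05) in R6/2 on HSP990, and between 6.86 and 7.18 (median 6.96) in wild type and between 6.76 and 7.11 (median 6.87) in R6/2 on vehicle. Cdc45 lay between 5.05 and 5.49 (median 5.20) in wild type and between 5.22 and 5.56 (median 5.52) in R6/2 on HSP990, and between 5.06 and 5.45 (median 5.27) in wild type and between 5.09 and 5.44 (median 5.25) in R6/2 on vehicle. All 3 overlapped on both treatments. With the 3' minus 5' difference as a covariate the adjusted p values of Mcm7 and Mcm2 were 0.267 and 0.203, and that of Cdc45 was 0.0882. The origin-loading gene Cdc6 (0.14 ± 0.10) and the helicase gene Mcm3 (0.08 ± 0.10) were not called.

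At the fork and in nucleotide supply, 6 of 7 genes were higher in R6/2 on HSP990 and 3 on vehicle. Rrm1, the large subunit of ribonucleotide reductase, lay between 7.22 and 7.40 (median 7.26) in wild type and between 7.32 and 7.72 (median 7.64) in R6/2 on vehicle (0.29 ± 0.07, adjusted p = 0.00215). On HSP990 it lay between 6.93 and 7.41 (median 7.11) in wild type and between 7.57 and 7.80 (median 7.70) in R6/2, without overlap (0.57 ± 0.06, adjusted p = 8.5e-09). No other probe set of Rrm1 was called on HSP990. Under alternative processing the difference fell as low as 0.17 and still passed. Rrm2, the small subunit of the same enzyme, was not called on either treatment (-0.39 ± 0.28 and 0.14 ± 0.25) and had a far wider spread, from 4.26 to 6.11 in wild type on vehicle.

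Fen1, the nuclease that trims Okazaki fragments, lay between 8.28 and 8.59 (median 8.48) in wild type on vehicle and between 8.09 and 8.31 (median 8.23) in wild type on HSP990. In R6/2 it lay between 8.49 and 8.75 (median 8.68) on vehicle and between 8.47 and 8.80 (median 8.64) on HSP990. The genotypes were separate on HSP990 (0.41 ± 0.05, adjusted p = 1.72e-07) and overlapped on vehicle (0.15 ± 0.06, adjusted p = 0.0615).

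Pcna, the sliding clamp, lay between 9.21 and 10.09 (median 9.72) in wild type and between 9.37 and 10.45 (median 10.29) in R6/2 on vehicle (0.47 ± 0.16, adjusted p = 0.0289). On HSP990 it lay between 9.56 and 10.15 (median 9.86) in wild type and between 9.72 and 10.59 (median 10.30) in R6/2 (0.36 ± 0.14, adjusted p = 0.0473). The genotypes overlapped on both, and leaving out any of 18 single arrays took the HSP990 call away. The clamp loader gene Rfc4 was higher by 0.42 ± 0.12 on vehicle (adjusted p = 0.0119) and by 0.31 ± 0.11 on HSP990 (adjusted p = 0.024). Rfc4 lay between 5.45 and 5.96 (median 5.70) in wild type and between 5.67 and 6.47 (median 5.94) in R6/2 on HSP990, and between 5.31 and 5.86 (median 5.62) in wild type and between 5.39 and 6.39 (median 6.06) in R6/2 on vehicle. Fitting only the vehicle groups took the vehicle calls of Pcna and Rfc4 away (adjusted p = 0.0736 and 0.0539). Tyms lay between 3.33 and 3.99 (median 3.78) in wild type and between 3.85 and 4.21 (median 3.99) in R6/2 on HSP990, and between 3.51 and 3.73 (median 3.67) in wild type and between 3.50 and 4.03 (median 3.79) in R6/2 on vehicle. Dut lay between 7.61 and 8.11 (median 7.90) in wild type and between 7.88 and 8.29 (median 8.11) in R6/2 on HSP990, and between 7.75 and 8.22 (median 7.97) in wild type and between 7.85 and 8.20 (median 8.03) in R6/2 on vehicle. These ranges overlapped on both treatments. The thymidylate synthase gene Tyms (0.30 ± 0.08, adjusted p = 0.00355) and the dUTPase gene Dut (0.21 ± 0.07, adjusted p = 0.0163) were higher on HSP990, and neither passed with the mean of its probe sets (adjusted p = 0.391 and 0.0846).

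Among the 7 measured cyclins and CDK partners, 4 were higher and 1 lower in R6/2 on HSP990, and 2 were higher and 1 lower on vehicle. Cks1b and Cks2 encode the small proteins that dock substrates onto cyclin-dependent kinases, and had the largest genotype differences of the 43 genes on HSP990. Cks1b lay between 6.51 and 7.13 (median 7.07) in wild type on vehicle, between 5.70 and 6.61 (median 6.25) in wild type on HSP990, between 7.02 and 8.75 (median 8.22) in R6/2 on vehicle and between 7.85 and 8.30 (median 8.03) in R6/2 on HSP990. The genotypes overlapped on vehicle only through R6/2 vehicle replicate 7, at 7.02, and were separate on HSP990. The differences were 1.23 ± 0.17 on vehicle (adjusted p = 3.37e-06) and 1.84 ± 0.15 on HSP990 (adjusted p = 9.13e-11), the latter a 3.59-fold difference.

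Cks2 lay between 5.29 and 6.35 (median 5.97) in wild type on vehicle, between 5.44 and 6.11 (median 5.71) in wild type on HSP990, between 6.23 and 7.62 (median 7.22) in R6/2 on vehicle and between 7.48 and 8.14 (median 7.72) in R6/2 on HSP990. The genotypes overlapped slightly on vehicle and were more than 1 log2 unit apart on HSP990. The differences were 1.17 ± 0.17 (adjusted p = 4.6e-06) and 2.08 ± 0.15 (adjusted p = 5.22e-12), or 2.25-fold and 4.23-fold. A second probe set of each of Cks1b and Cks2 was also called higher on both treatments.

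The cyclin E genes Ccne1 and Ccne2, whose proteins start DNA synthesis with CDK partners, were higher in R6/2 on HSP990 by 0.60 ± 0.11 (adjusted p = 8.92e-05) and 0.54 ± 0.11 (adjusted p = 0.000231). On vehicle their differences were 0.16 ± 0.13 and 0.03 ± 0.12. Ccne1 lay between 6.14 and 6.97 (median 6.60) in wild type and between 6.86 and 7.55 (median 7.23) in R6/2 on HSP990, and between 6.65 and 7.57 (median 6.97) in wild type and between 6.95 and 7.46 (median 7.13) in R6/2 on vehicle. Ccne2 lay between 5.68 and 6.22 (median 5.83) in wild type and between 6.13 and 6.71 (median 6.39) in R6/2 on HSP990, and between 5.69 and 6.46 (median 5.95) in wild type and between 5.63 and 6.61 (median 5.93) in R6/2 on vehicle. The genotypes overlapped in part on HSP990 and almost throughout on vehicle. Ccna2, the cyclin A gene of DNA synthesis and mitosis, was lower in R6/2. It lay between 6.07 and 6.43 (median 6.22) in wild type and between 5.41 and 6.29 (median 5.67) in R6/2 on vehicle (-0.44 ± 0.11, adjusted p = 0.00299), and the difference on HSP990 was -0.27 ± 0.10 (adjusted p = 0.0309). On HSP990 it lay between 6.07 and 6.71 (median 6.31) in wild type and between 5.79 and 6.22 (median 6.13) in R6/2, with overlap on both treatments. The HSP990 call of Ccna2 was lost without any of 5 single arrays. The cyclin B gene Ccnb2 and the mitotic kinase gene Cdk1 were called on neither treatment, and Cdk1 lay between 4.73 and 5.51 (median 5.35), 4.98 and 5.86 (median 5.35), 4.83 and 6.05 (median 5.27), and 4.98 and 5.54 (median 5.35) in wild type on vehicle and on HSP990 and in R6/2 on vehicle and on HSP990, so that all 4 groups overlapped.

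**Figure D3:**
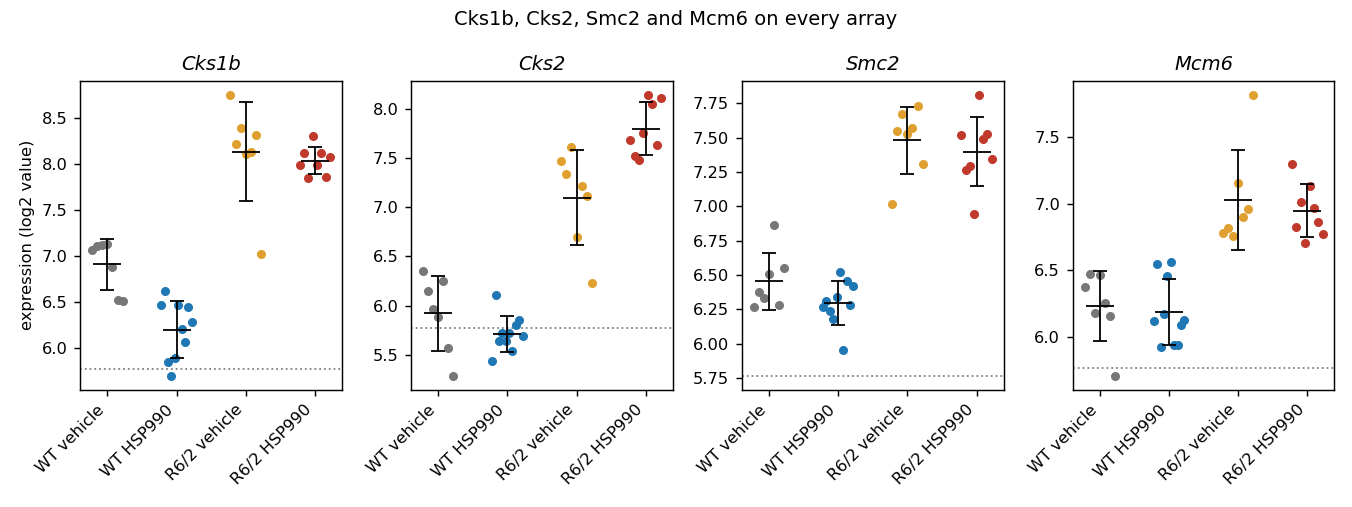
Log2 expression of Cks1b, Cks2, Smc2 and Mcm6 on each array (vertical axes, each with its own range) in the 4 groups; points are arrays, bars the mean and 1 SD, and the dotted line marks 5.77. The means of the R6/2 groups lie above those of the wild-type groups for all 4 genes, with R6/2 vehicle replicate 7 as the low point of Cks1b (7.02) and the high point of Mcm6 (7.82).

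In the checkpoint and repair group, Brca1 was higher in R6/2 on both treatments. This scaffold of homologous recombination lay between 5.43 and 5.92 (median 5.67) in wild type and between 5.13 and 6.91 (median 6.31) in R6/2 on vehicle, where the R6/2 range enclosed the wild-type range (0.58 ± 0.17, adjusted p = 0.0119; adjusted p = 0.0674 when only the vehicle groups were fitted). On HSP990 it lay between 5.68 and 6.00 (median 5.81) in wild type and between 6.38 and 7.28 (median 6.85) in R6/2, without overlap (0.94 ± 0.15, adjusted p = 7.23e-06). No other probe set of Brca1 was called on HSP990. Under alternative processing the difference fell as low as 0.25 and still passed. Rad51ap1 and Chek1 differed by 1.26 ± 0.11 and 0.52 ± 0.08 on HSP990 and by 0.32 ± 0.12 and -0.14 ± 0.09 on vehicle, given without a test.

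Among the 5 chromatin and transcription genes, Smc2 was higher in R6/2 on both treatments by nearly the same amount. This condensin subunit, which compacts mitotic chromosomes, lay between 6.26 and 6.86 (median 6.38) in wild type and between 7.02 and 7.73 (median 7.55) in R6/2 on vehicle (1.03 ± 0.11, adjusted p = 6.24e-08). On HSP990 it lay between 5.95 and 6.52 (median 6.30) in wild type and between 6.94 and 7.81 (median 7.42) in R6/2 (1.10 ± 0.10, adjusted p = 3.77e-10). The genotypes did not overlap on either treatment, and another probe set of Smc2 was called higher on both.

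Hells, a chromatin remodeller, was higher by 0.34 ± 0.07 on HSP990 (adjusted p = 0.000351) and differed by -0.07 ± 0.08 on vehicle. Hells lay between 6.00 and 6.47 (median 6.33) in wild type and between 6.41 and 6.87 (median 6.61) in R6/2 on HSP990, and between 6.21 and 6.73 (median 6.46) in wild type and between 6.20 and 6.49 (median 6.34) in R6/2 on vehicle. Mki67, the chromosome surface protein known as Ki-67, and the topoisomerase gene Top2a, both markers of dividing cells, were called on neither treatment. Mki67 lay between 4.76 and 6.62 (median 5.92) in wild type and between 4.85 and 6.21 (median 5.30) in R6/2 on vehicle, and between 5.05 and 6.77 (median 5.68) and between 4.93 and 6.42 (median 5.74) on HSP990. Its genotype differences were -0.40 ± 0.24 and 0.03 ± 0.22, and those of Top2a were -0.07 ± 0.22 and -0.11 ± 0.19. Top2a lay between 5.01 and 6.16 (median 5.92) and between 5.25 and 6.34 (median 5.60) on vehicle, and between 5.19 and 6.59 (median 5.72) and between 4.75 and 6.27 (median 5.69) on HSP990, in wild type and R6/2. Both genes varied more between arrays of 1 group than between group means.

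Of the 11 mitotic kinase, spindle and kinetochore genes, 9 were dim. On HSP990 6 were higher and 2 lower in R6/2, and on vehicle only the same 2 were called, both lower. The higher genes other than Cenpe were Cdc20, an activator of the anaphase-promoting complex (0.63 ± 0.15, adjusted p = 0.000816), Birc5, which encodes survivin of the chromosomal passenger complex (0.62 ± 0.13, adjusted p = 0.000401), and the spindle motor gene Kif11 (0.51 ± 0.11, adjusted p = 0.000357). Cdc20 lay between 5.62 and 6.35 (median 6.02) in wild type and between 6.25 and 7.37 (median 6.64) in R6/2 on HSP990, and between 5.80 and 6.47 (median 6.17) in wild type and between 5.72 and 7.07 (median 6.71) in R6/2 on vehicle. Birc5 lay between 3.65 and 4.39 (median 3.92) in wild type and between 4.27 and 5.03 (median 4.47) in R6/2 on HSP990, and between 3.56 and 4.65 (median 4.18) in wild type and between 4.09 and 4.55 (median 4.28) in R6/2 on vehicle. Kif11 lay between 4.43 and 5.03 (median 4.79) in wild type and between 4.93 and 5.69 (median 5.24) in R6/2 on HSP990, and between 4.20 and 4.98 (median 4.74) in wild type and between 4.52 and 5.41 (median 4.93) in R6/2 on vehicle. On HSP990, 7 of 8 R6/2 arrays lay above the highest wild-type array for Cdc20 and for Kif11, and 5 of 8 for Birc5. The rest lay within the wild-type range. The centromeric histone gene Cenpa (0.46 ± 0.15, adjusted p = 0.0143) and the spindle pole kinase gene Aurka (0.23 ± 0.06, adjusted p = 0.00636) were also higher, and neither passed with the mean of its probe sets (adjusted p = 0.104 and 0.0829). Cenpa lay between 4.18 and 5.31 (median 4.67) in wild type and between 4.67 and 5.51 (median 5.14) in R6/2 on HSP990, and between 4.29 and 5.41 (median 4.52) in wild type and between 4.42 and 5.25 (median 4.81) in R6/2 on vehicle. Aurka lay between 5.42 and 5.71 (median 5.64) in wild type and between 5.63 and 6.07 (median 5.85) in R6/2 on HSP990, and between 5.43 and 5.80 (median 5.67) in wild type and between 5.37 and 5.90 (median 5.70) in R6/2 on vehicle. Their groups overlapped on both treatments.

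The 2 lower genes were kinases. Plk1, which drives entry into mitosis, lay between 5.99 and 6.34 (median 6.18) in wild type and between 5.50 and 5.99 (median 5.89) in R6/2 on vehicle, touching but not overlapping (-0.37 ± 0.08, adjusted p = 0.00105). On HSP990 it lay between 6.04 and 6.27 (median 6.17) in wild type and between 5.53 and 6.12 (median 5.81) in R6/2 (-0.33 ± 0.07, adjusted p = 0.000514). Melk, a kinase of proliferating progenitors, was lower by 0.48 ± 0.12 on vehicle (adjusted p = 0.00297) and by 0.43 ± 0.10 on HSP990 (adjusted p = 0.00148). Melk lay between 4.99 and 5.64 (median 5.13) in wild type and between 4.43 and 5.25 (median 4.90) in R6/2 on HSP990, and between 4.90 and 5.26 (median 5.18) in wild type and between 4.40 and 4.95 (median 4.66) in R6/2 on vehicle. Both kinases overlapped between the genotypes on HSP990. Aurkb, Bub1 and Nusap1, which act at the kinetochore, in the spindle checkpoint and on the spindle, were called on neither treatment; Aurkb and Bub1 had means of 3.29 to 3.47 in all groups.

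HSP990 moved few of these genes when each genotype was compared with its own vehicle. In wild type 5 genes fell and 0 rose, against 5.8% of all genes called (3.57% lower and 2.24% higher). In R6/2 6 rose and 0 fell, against 3.09% of all genes called (2.18% higher and 0.918% lower). Cenpe, Tcf19, Rad51ap1 and Chek1 account for 2 of the 5 and 4 of the 6, which leaves 3 of 39 and 2 of 39. At an unadjusted p under 0.05, 8 of those 39 were lower and 0 higher in wild type, and 15 were higher and 0 lower in R6/2. At that limit 2223 of all 18193 genes were lower and 1140 higher in wild type. In R6/2, 1902 of all genes were higher and 977 lower. The median change over the 43 genes was -0.08 in wild type (all genes -0.03) and 0.17 in R6/2 (all genes 0.02). Over those 39 genes, without the 4 selected on these responses, the medians were -0.059 and 0.155. The R6/2 vehicle group is the reference of the R6/2 response and a term of the vehicle genotype difference, and the drug groups enter both the responses and the genotype difference on HSP990, so these are not separate evidence.

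In wild type, 0 of the 43 genes had vehicle and HSP990 groups without overlap, against 1.47% of all genes. Cks1b fell by 0.71 ± 0.16 (adjusted p = 0.00449), with 9 of 10 HSP990 arrays below the lowest vehicle array. Fen1 fell by 0.27 ± 0.05 (adjusted p = 0.00143), also with 9 of 10 arrays below the vehicle range. Ccne1 lay between 6.65 and 7.57 (median 6.97) on vehicle and between 6.14 and 6.97 (median 6.60) on HSP990 and fell by 0.43 ± 0.12 (adjusted p = 0.0241). Leaving out WT HSP990 replicate 10 or WT vehicle replicate 3 reduced the wild-type calls from 5 to 3, and Ccne1 was among those lost (adjusted p = 0.0508 and 0.0879). With the mean of its probe sets the fall of Fen1 did not pass (-0.18, adjusted p = 0.0501).

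In R6/2, Cks2 rose by 0.70 ± 0.16 (adjusted p = 0.0118) and Mcm5 by 0.50 ± 0.12 (adjusted p = 0.0144). With the 3' minus 5' difference as a covariate these changes were 0.56 and 0.36 and no longer passed (adjusted p = 0.0572 and 0.0623). Cks2 also did not pass when limma fitted only the R6/2 groups (adjusted p = 0.0774). Mcm5 did not pass without R6/2 vehicle replicate 7 (limma adjusted p = 0.0544). Without R6/2 vehicle replicate 1, 10 genes were called rather than 6. Averaged over genotypes, Cks1b was lower on HSP990 by 0.40 ± 0.12 (adjusted p = 0.026) and Fen1 by 0.14 ± 0.04 (adjusted p = 0.0238), and 1 gene of the 43, Rad51ap1, was higher, where 7.69% of all genes were called (3.99% higher and 3.7% lower). Without R6/2 HSP990 replicate 6, 3 genes were higher and 2 lower. With the mean of its probe sets Fen1 did not pass (-0.08, adjusted p = 0.281).

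**Figure D4:**
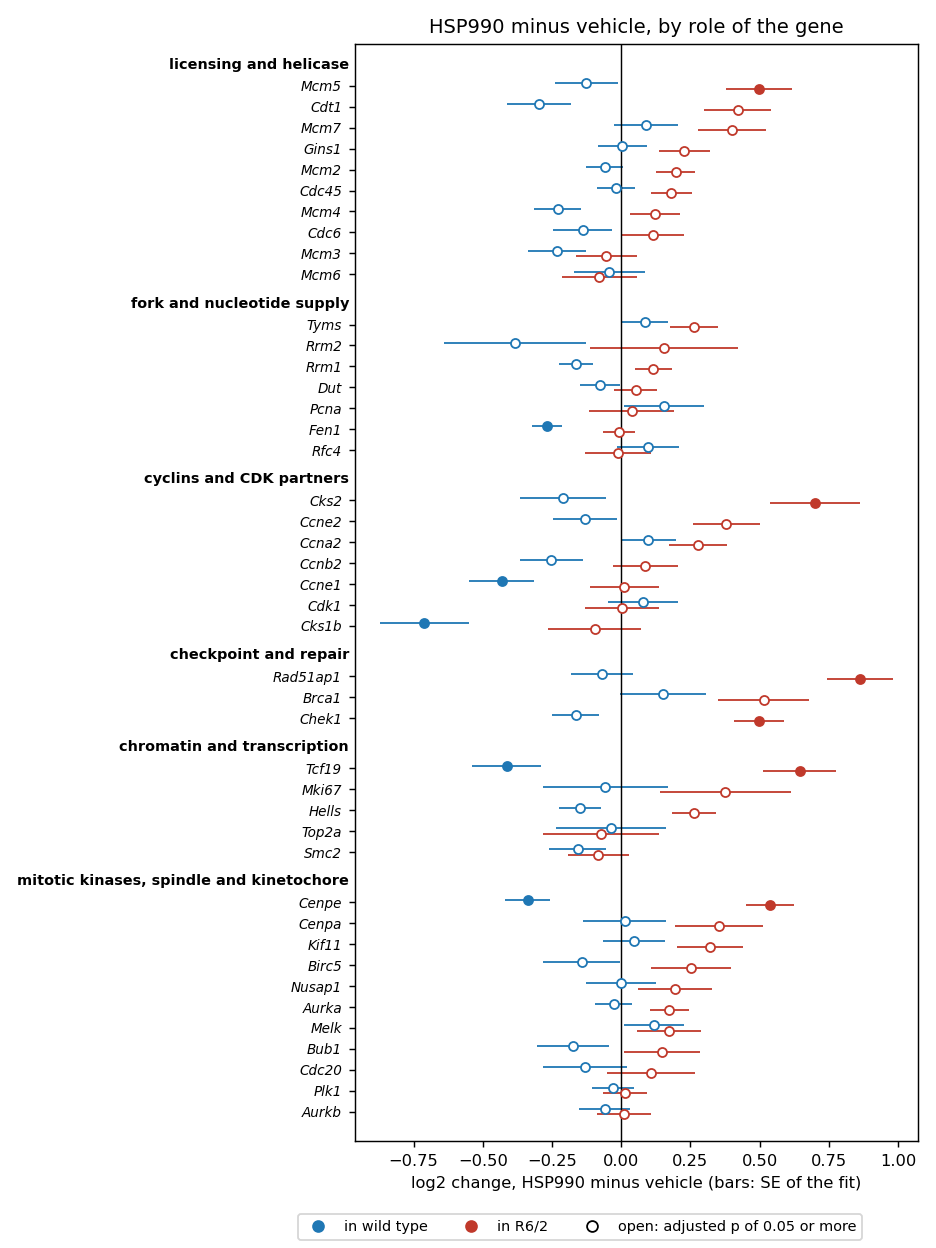
HSP990 minus vehicle (horizontal axis, log2) for the 43 measured genes in order of role, in wild type (blue) and in R6/2 (red); bars are the SE of the fit and open points have an adjusted p of 0.05 or more. Filled blue points lie to the left of 0 (Cks1b at -0.71) and filled red points to the right (Rad51ap1 at 0.86). The fill of Cenpe, Rad51ap1, Chek1 and Tcf19 is not a test.

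The difference between the responses was positive for 38 of the 43 genes, with a median of 0.27, and positive for 62.1% of all genes, with a median of 0.05. Of the 39 genes that this contrast had not selected, 34 were positive, and their median was 0.26. Among these, 0 were called by limma, where 0.247% of all genes were called (0.17% higher and 0.077% lower). At an unadjusted p under 0.05, 13 of the 39 were higher and 0 lower, where 1771 of all 18193 genes were higher and 574 lower. Those nearest to a call were Cdt1 (0.72 ± 0.17, adjusted p = 0.0543), Cks2 (0.91 ± 0.23, adjusted p = 0.0691), Mcm5 (0.62 ± 0.16, adjusted p = 0.0876) and Hells (0.41 ± 0.11, adjusted p = 0.0947). The calls among the 43 rose from 4 to 7 without R6/2 vehicle replicate 1 and without WT vehicle replicate 7. For Smc2, Mcm6 and Pcna, which were higher in R6/2 on vehicle, the responses differed by 0.08 ± 0.15, -0.04 ± 0.19 and -0.12 ± 0.21 and were not called.

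Averaged over treatments, 27 genes were higher and 3 lower in R6/2, against 38.9% of all genes called (24.3% higher and 14.6% lower). Without Cenpe, Rad51ap1, Chek1 and Tcf19, 23 of 39 were higher. By role, 5 of 10 licensing genes, 6 of 7 fork and nucleotide genes, 4 of 7 cyclins and partners, all 3 checkpoint and repair genes, 3 of 5 chromatin genes and 6 of 11 mitotic genes were higher. The largest were Cks2 (1.63 ± 0.11, adjusted p = 5.32e-13), Cks1b (1.54 ± 0.12, adjusted p = 2.91e-12) and Smc2 (1.06 ± 0.08, adjusted p = 8.21e-13).

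Other genes of the same processes moved in part alike. Of 48 measured replication and repair genes outside the list, 25 were higher and 3 lower in R6/2 on HSP990, and 10 were higher and 2 lower on vehicle. Of all genes, 22.6% were higher and 11% lower on HSP990, and 11.9% were higher and 9.6% lower on vehicle. The smallest p on HSP990 were those of Clspn, which encodes the CHK1 adaptor claspin and was lower by 1.84 ± 0.15 (adjusted p = 6.58e-11), the mismatch repair gene Msh6 (0.85 ± 0.09, adjusted p = 5.67e-09), the single-strand binding protein gene Rpa1 (0.61 ± 0.07, adjusted p = 6.73e-08) and the primase gene Prim1 (0.78 ± 0.10, adjusted p = 1.82e-07). Of 43 further mitosis genes, 17 were higher and 0 lower on HSP990, among them the spindle checkpoint gene Bub3 (0.51 ± 0.05, adjusted p = 3.89e-10) and the kinetochore gene Cenpk (0.84 ± 0.11, adjusted p = 3.13e-07).

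Of 38 regulators of the cycle, 10 were higher and 6 lower on HSP990, near the 22.6% and 11% of all genes, and their median difference of 0.03 was close to that of all genes (0.04). Those with the smallest p were Lin9, of the complex that regulates cell cycle promoters (0.77 ± 0.09, adjusted p = 1.68e-08), the mitosis-restraining kinase gene Wee1 (0.71 ± 0.08, adjusted p = 4.64e-08) and the phosphatase gene Cdc25a (0.83 ± 0.11, adjusted p = 7.19e-07). In the R6/2 response to HSP990, 5 of the 43 mitosis genes rose, led by Cenpk (0.79 ± 0.12, adjusted p = 8.66e-05), with 2 of 48 replication genes and 1 of 38 regulators, and 0 fell in all 3 lists. Of all genes 2.18% rose, and the shares of replication genes and regulators lie near that. In the difference between responses 0 genes of these 3 lists were called by limma, with 11, 8 and 5 of them higher and 0, 0 and 2 lower at an unadjusted p under 0.05. At that limit 1771 of all 18193 genes were higher and 574 lower.

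Markers of cell types also differed between the genotypes. Averaged over treatments, 24.3% of all genes were higher and 14.6% lower in R6/2. All 10 measured markers of medium spiny neurons, the main neurons of the striatum, were lower in R6/2 averaged over treatments, with a median of -1.60, and 5 of 9 microglia markers were lower with 0 higher. Of 9 markers of neural progenitors and neuroblasts, 4 were higher and 1 lower. The mean of the 9 ran from 6.78 to 7.21 and from 6.78 to 7.22 in wild type on vehicle and on HSP990, and from 7.07 to 7.30 and from 6.86 to 7.35 in R6/2. Of the 9, Igfbpl1 and Draxin were dim. Of 8 oligodendrocyte precursor markers, 1 was higher and 3 lower, and of 8 astrocyte markers 1 was higher and 3 lower. Of 10 markers of ependyma and choroid plexus 1 was higher and 1 lower, of 6 blood cell markers 0 were higher and 1 lower, and of 9 markers of endothelium and pericytes 0 were called. On HSP990 alone, where most of the 43 genes were higher, 9 of the 10 medium spiny neuron markers were lower, and of the progenitor markers 3 were higher and 1 lower. There 22.6% of all genes were higher and 11% lower. In the R6/2 response to HSP990, 0 progenitor, 0 oligodendrocyte precursor, 0 microglia and 0 astrocyte markers were called by limma, with 1, 0, 0 and 0 higher and 0, 1, 1 and 1 lower at an unadjusted p under 0.05. In the same response 2 of the 10 medium spiny neuron markers fell, the receptor genes Drd1 (-0.80 ± 0.16, adjusted p = 0.00242) and Gpr6 (-1.01 ± 0.22, adjusted p = 0.00754). Of the endothelial markers, Flt1 rose (0.31 ± 0.08, adjusted p = 0.0237) and Cldn5 fell (-0.73 ± 0.21, adjusted p = 0.0481). Among all genes 2.18% rose and 0.918% fell in that response. The part of these cell types in the genotype differences above was not tested.

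Between arrays of the same group, Mki67 moved with Top2a and with the progenitor markers. Deviations from group means over the 32 arrays gave r = 0.90 and rho = 0.89 for Mki67 and Top2a (permutation p = 1e-05 each, the smallest that 100000 permutations within groups can give; adjusted p = 2.5e-05 over 5 relations), and r = 0.87 without the 2 arrays farthest from the median. For Mki67 and the mean of the progenitor markers, r was 0.83 and rho 0.82 (permutation p = 1e-05 each, adjusted p = 2.5e-05), 0.79 without 2 arrays, and 0.72 to 0.89 within single groups. The relation to Cdk1 was weaker (r = 0.53, rho = 0.53, permutation adjusted p = 0.0058 for both), as was that to oligodendrocyte precursor markers (r = 0.44, rho = 0.49, permutation adjusted p = 0.0261 and 0.00862), and Pcna gave r = -0.26 and rho = -0.21 (permutation adjusted p = 0.171 and 0.285). What sets this variation between arrays was not tested.

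**Figure D5:**
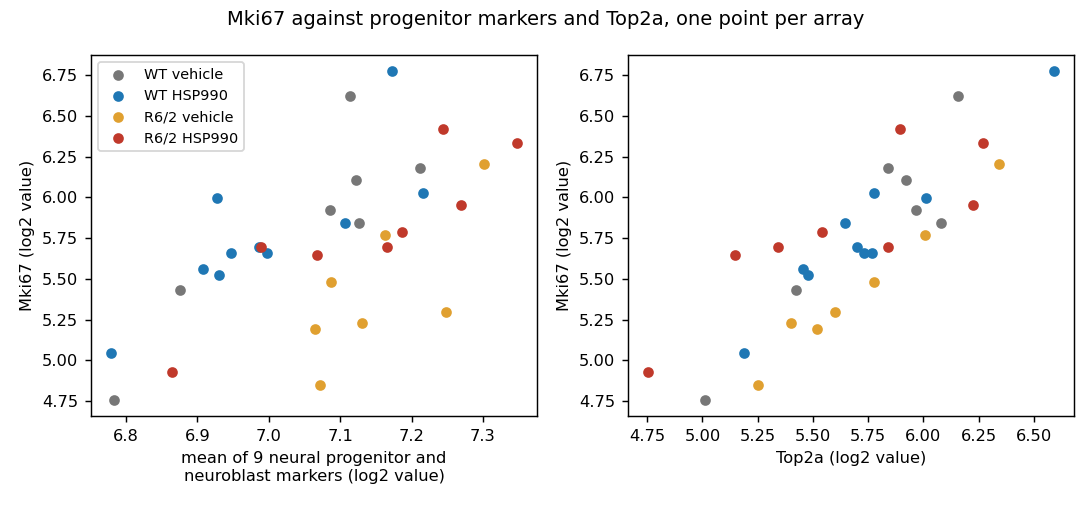
Mki67 (vertical axes, log2 value) against the mean of 9 neural progenitor and neuroblast markers (left) and against Top2a (right), with 1 point per array and colours for the 4 groups. Mki67 spans 4.76 to 6.77 and rises with both measures within every group, while the groups themselves overlap.

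Over all 43 genes, correlation between genes within groups was modest. The 903 pairs had a median r of 0.15, and the closest pairs were Mki67 with Top2a (0.90), the helicase genes Mcm5 and Mcm7 (0.84), Mcm7 with Kif11 (0.83) and Mki67 with Rrm2 (0.82). The genes nearest to Mki67 in this measure, Top2a and Rrm2, were among the 10 genes called on neither treatment. These correlations are descriptions over arrays that share depth of hybridisation and RNA quality.

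Other probe sets of the same genes gave a check of the calls. Of the 43 genes, 34 had 61 further probe sets, 49 of them dim. In the genotype comparison on HSP990, 28 called genes had other probe sets, and 38 of the 50 pointed the same way. Of these genes, 18 had another one called in the same direction and 0 had one called in the opposite direction. Cenpe, Chek1 and Rad51ap1 are among the 18, and their calls are no test. Those without a second call were Aurka, Brca1, Ccna2, Cdc20, Cenpa, Dut, Mcm2, Rrm1, Tcf19 and Tyms. On vehicle, Cks1b, Cks2, Mcm6 and Smc2 had such a second call. Probe sets whose names end in _x_at or _s_at, among them those of Mcm5, Mcm7, Fen1 and Chek1, can bind transcripts of more than 1 gene.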

How the data were processed

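Mouse striatal RNA was measured on 32 Affymetrix arrays, labelled with a 3' IVT kit per the labels' protocols. The deposited values are log2 expression values of 45101 probe sets, with array medians from 5.73 to 5.78; how the authors normalized them is not given in these sources. Probe sets paired with 1 gene symbol in the platform annotation were kept (34945), and the brightest by its mean over all arrays stood for each of 18193 genes. limma 3.58.1 in R 4.3.3 fitted the 4 groups with 1 estimate of spread, and p-values were adjusted over all genes (Benjamini-Hochberg) in each of 7 comparisons, with calls at an adjusted p under 0.05. The fit was tested on simulated data. The number of arrays limits the precision.

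The genes and lists were chosen with earlier results of these data known. All 43 measured genes are named; genes of other lists are those with the smallest p. Promoters came from RefSeq (39 of 44 genes matched). Alternatives were quantile normalization, median centring, all probe sets, the mean of a gene's probe sets, no dim genes, array weights, a fit of the compared groups alone, a variance that is trended and robust, a replicate block, the 3' bias as a covariate, no arrays with a Gapdh 3' minus 5' difference over 2, and each array left out. Deviations of arrays that share a replicate number correlated with a median r of 0.07 over 43 pairs, so the numbers were not taken to pair the samples.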

Additional observations from a re-analysis of the deposited data

Results flagged for a closer look

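The responses of Cenpe (0.88), Chek1 (0.66), Rad51ap1 (0.93) and Tcf19 (1.06) differed between the genotypes, given as R6/2 minus wild type on the log2 scale; these are the values that chose the genes and carry no test.

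In 11 of 172 sets of values of 1 gene in 1 group, a single array stood far from the others by Dixon's criterion, which chance meets in about 1 set in 20. WT vehicle replicate 7 was low for Kif11 (4.20, others 4.71 to 4.98), Mcm6 (5.71, others 6.15 to 6.47) and Rad51ap1 (4.32, others 4.86 to 5.18). R6/2 vehicle replicate 7 was low for Cks1b (7.02, others 8.11 to 8.75) and high for Mcm6 (7.82, others 6.76 to 7.15). R6/2 vehicle replicate 1 was low for Pcna (9.37, others 10.14 to 10.45). R6/2 HSP990 replicate 4 was high for Cdc20 (7.37, others 6.25 to 6.69) and Cdc6 (3.62, others 3.21 to 3.39), and replicate 2 of that group was low for Ccna2 (5.79, others 6.06 to 6.22). WT HSP990 replicate 2 was high for Cdk1 (5.86, others 4.98 to 5.44), and WT vehicle replicate 5 was high for Mcm2 (7.18, others 6.86 to 6.98).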

How the results depend on the processing

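No direction reversed under the alternatives run, which covered the genes called in each comparison and Cenpe, Rad51ap1, Chek1 and Tcf19. Counts of called genes among the 43 moved as follows. Array weights gave 10 calls in the R6/2 response. The mean of probe sets gave 5 calls for the drug averaged over genotypes and 3 for the wild-type response. The replicate block, fitted although the numbers were not taken to pair the samples, also gave 5 and 3, with Ccne1 among the wild-type calls lost (adjusted p = 0.137). Without dim genes, which leaves 21 of the 43, there were 3 calls in the R6/2 response, 19 for the genotype averaged over treatments, 21 on HSP990 and 1 in the difference of responses, with fewer genes tested. With each array left out in turn, calls ran from 3 to 6 in the wild-type response, 5 to 10 in the R6/2 response, 10 to 14 on vehicle, 29 to 33 on HSP990, 4 to 7 for the difference of responses, 3 to 5 for the drug averaged over genotypes (5 without R6/2 HSP990 replicate 6) and 27 to 30 for the genotype averaged over treatments. The causes were not tested. Signals near background limit what the 22 dim genes can show.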
